A study of Mus musculus with 24 samples.

Results

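The enzymes that turn a prohormone into an active neuropeptide, and Rab3a, a small GTPase of secretory vesicles, were followed through 24 RNA libraries of GT1-7 cells, an immortalised mouse hypothalamic line that makes gonadotropin-releasing hormone (GnRH). The set holds 9 genes chosen by name, of 57010 gene rows in each of the count tables: the convertases Pcsk1 and Pcsk2, the carboxypeptidases Cpe and Cpd, the amidating enzyme Pam, the glutaminyl cyclases Qpct and Qpctl, the prolylcarboxypeptidase Prcp, and Rab3a. The series asks how Mkrn3, a RING-finger RNA-binding protein, acts on the RNA and the precursor of GnRH. All 9 rows were found in both tables, 6 passed the filter on low counts in the fractionation experiment and 7 in the RNA immunoprecipitation (RIP) experiment.

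Each experiment had 4 groups of 3 libraries. In the fractionation experiment the groups were total RNA of Mkrn3ox cells (a GT1-7 line with stable GFP-Mkrn3), total RNA of wt GT1-7 cells, cytoplasmic RNA of Mkrn3ox cells, and cytoplasmic RNA of wt cells. In the RIP experiment, wt GT1-7 cells were given 6 µg of GFP-Mkrn3 plasmid or of GFP plasmid for 24 h, and RNA was measured in the material held by GFP-binding beads (IP) and in 5% of the lysate (input). The groups were GFP-Mkrn3 IP, GFP-Mkrn3 input, GFP IP and GFP input. The promoter driving GFP-Mkrn3, the share of cells that took up a plasmid, and whether the stable line is 1 clone are not stated by the labels.

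A peptide hormone is made as a precursor that is cut and trimmed on its way through the Golgi and into dense-core vesicles. Convertases cut the precursor after paired basic residues, carboxypeptidases remove those residues from the new end, and the amidating enzyme turns a terminal glycine into an amide. Glutaminyl cyclases close an N-terminal glutamine into pyroglutamate. Mature GnRH carries both the pyroglutamate and the amide, so its precursor passes through each of these steps.

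The promoters of 4 genes are shown because their data stand apart: the convertase Pcsk2 was counted in every RIP library and the convertase Pcsk1 in none, and Cpd and Rab3a moved in opposite directions in the GFP pull-down. Each line gives the 250 bases before the transcription start of the gene's promoter entry, 5′ to 3′ on the gene's strand, from RefSeq on GRCm38.p6, the build known as mm10. The windows are chr13:75089607-75089856 (plus strand) for Pcsk1, chr2:143545883-143546132 (plus) for Pcsk2, chr11:76847009-76847258 (minus) for Cpd and chr8:70754453-70754702 (plus) for Rab3a, the upstream one of its 2 entries. The start of the Pcsk1 entry, base 75089857, lies 437 bases inside the annotated Pcsk1 span, so the whole Pcsk1 window lies within that span, while the other 3 windows end where the gene spans begin. Capitals mark matches, on either strand, to the cAMP response element TGACGTCA, the GC box GGGCGG, the CCAAT box CCAAT, or the TATA box TATAAA.
Pcsk1: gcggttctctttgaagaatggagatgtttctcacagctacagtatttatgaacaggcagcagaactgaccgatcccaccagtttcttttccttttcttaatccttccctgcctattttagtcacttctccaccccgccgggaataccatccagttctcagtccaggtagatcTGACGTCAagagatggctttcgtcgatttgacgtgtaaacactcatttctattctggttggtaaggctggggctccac
Pcsk2: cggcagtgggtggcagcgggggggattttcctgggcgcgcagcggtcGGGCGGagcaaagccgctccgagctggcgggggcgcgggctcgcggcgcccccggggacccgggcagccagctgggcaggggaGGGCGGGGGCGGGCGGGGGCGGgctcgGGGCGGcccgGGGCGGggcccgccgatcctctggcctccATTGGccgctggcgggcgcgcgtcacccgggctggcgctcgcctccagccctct
Cpd: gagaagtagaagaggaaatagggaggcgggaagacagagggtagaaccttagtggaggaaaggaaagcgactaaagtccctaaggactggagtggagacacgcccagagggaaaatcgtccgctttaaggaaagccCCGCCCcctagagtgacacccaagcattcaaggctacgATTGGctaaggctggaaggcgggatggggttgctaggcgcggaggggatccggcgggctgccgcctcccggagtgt
Rab3a: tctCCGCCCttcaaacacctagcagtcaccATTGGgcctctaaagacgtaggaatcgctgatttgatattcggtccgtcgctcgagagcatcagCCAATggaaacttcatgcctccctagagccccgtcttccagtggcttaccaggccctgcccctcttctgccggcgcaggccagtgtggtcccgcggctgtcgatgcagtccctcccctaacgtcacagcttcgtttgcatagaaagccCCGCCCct
The Pcsk1 window held 1 cAMP response element, 78 to 71 bases before the start of that entry and within the gene span, and none of the other 3 motifs. The Pcsk2 window held 7 GC boxes, 2 of which share bases, and 1 CCAAT box. The Cpd window held 1 GC box and 1 CCAAT box, and the Rab3a window 2 of each. Of 32851 mouse promoter windows of this length, 1.55% held the cAMP response element, 32.7% a GC box, 33.9% a CCAAT box and 12.4% a TATA box. G and C made up 46.8% of the Pcsk1 window, 82.4% of the Pcsk2 window, 58.4% of the Cpd window and 58.8% of the Rab3a window. Pam and Prcp also have entries, with GC boxes as their only matches. Cpe, Qpct and Qpctl are named only.

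Library totals were 374386 to 759271 counts in the fractionation experiment and 6254703 to 14575652 in the RIP experiment. The spread between libraries, as edgeR's common coefficient of biological variation, was 0.384 with 5033 genes tested (fractionation) and 0.115 with 13052 genes tested (RIP). Levels in CPM use library sizes scaled by edgeR's TMM factors, and errors are ± SD (n = 3 libraries). Separate cultures for the 3 libraries of a group are not stated, and p-values measure only the spread between these libraries, which may be technical. Mkrn3 held 86579 to 141568 counts in the GFP-Mkrn3 IPs, 28280 to 32451 in the GFP-Mkrn3 inputs and 33 to 60 in the GFP libraries, as labelled. It held 0 to 5 counts per fractionation library in both lines, too few to check the stable line. Of 10 neuronal markers 3 to 5 had counts in a group, with Gap43, Nefl, Nefm and Elavl4 at 0 in all 24 libraries, and 1 to 3 of 9 glial markers had counts. In bulk RNA, fewer cells making a transcript and less of it per cell cannot be told apart.

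The same row often stood at very different levels in the 2 experiments, and this bears on every fractionation value. In wt total RNA against the GFP inputs, Pearson's r of log2(CPM + 1) was 0.103 across 4406 genes tested in both, a description across genes that are not independent. Of these genes 7.08% stood over 10-fold higher in wt total RNA and 8.33% stood over 10-fold lower. Library names carry CEL-seq in the fractionation experiment only, and the part of library protocol or depth in these gaps was not tested. The mitochondrial row mt-Nd6, from the strand opposite to the other 12 protein genes of that genome, took 96.2 to 98.6% of the mitochondrial protein-gene counts in the fractionation libraries and 8.85 to 35.4% in the RIP libraries. CEL-seq2, the stated protocol, keeps strand, and no label states the strand setting of the counting. A fractionation value is therefore given as the value of the named row, and is not read as the amount of that gene's mRNA.

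Among the 9 members the gap between experiments was widest for Rab3a, at 473 ± 78.9 CPM in wt total RNA and 12.1 ± 2.17 CPM in the GFP inputs, a ratio of 39.0 that exceeded the ratio of 97.1% of genes tested in both. Cpe went the other way, at 20.7 ± 7.79 CPM in wt total RNA and 273 ± 26.9 CPM in the GFP inputs, and so did Cpd, at 224 ± 66.6 and 1247 ± 37.7 CPM. Pam stood at 1181 ± 193 CPM in wt total RNA and 737 ± 29.3 CPM in the GFP inputs. Prcp was at 61.9 ± 7.36 and 56.9 ± 5.47 CPM in the same order, and Qpctl at 55.8 ± 25.0 and 26.2 ± 2.63 CPM. Within 5 kb, Rab3a has the gene Mpv17l2 on the opposite strand, 41 bases away, at 30.4 CPM of library size in wt total RNA and 14.4 in the GFP inputs. It also has the non-coding gene 6330537M06Rik on its own strand, 2507 bases away, at 131 CPM in wt total RNA and 0.174 in the GFP inputs. Its other neighbours, Pde4c and Ifi30, stood at 0 and 2.33 CPM in wt total RNA and at 0.111 and 5.17 CPM in the GFP inputs. Prcp has Ddias 336 bases away, at 0.439 CPM in wt total RNA and 19.7 in the GFP inputs. Qpctl has Fbxo46 1956 bases away, at 180 CPM in wt total RNA and 16.3 in the GFP inputs, and Snrpd2 249 bases away, at 6.94 and 113 CPM. Pam, Pcsk2 and Prcp overlap non-coding genes, while Cpe, Cpd, Pcsk1 and Qpct have no annotated neighbour in that window. The part of neighbouring or opposite-strand transcripts in these levels was not tested.

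**Figure D1:**
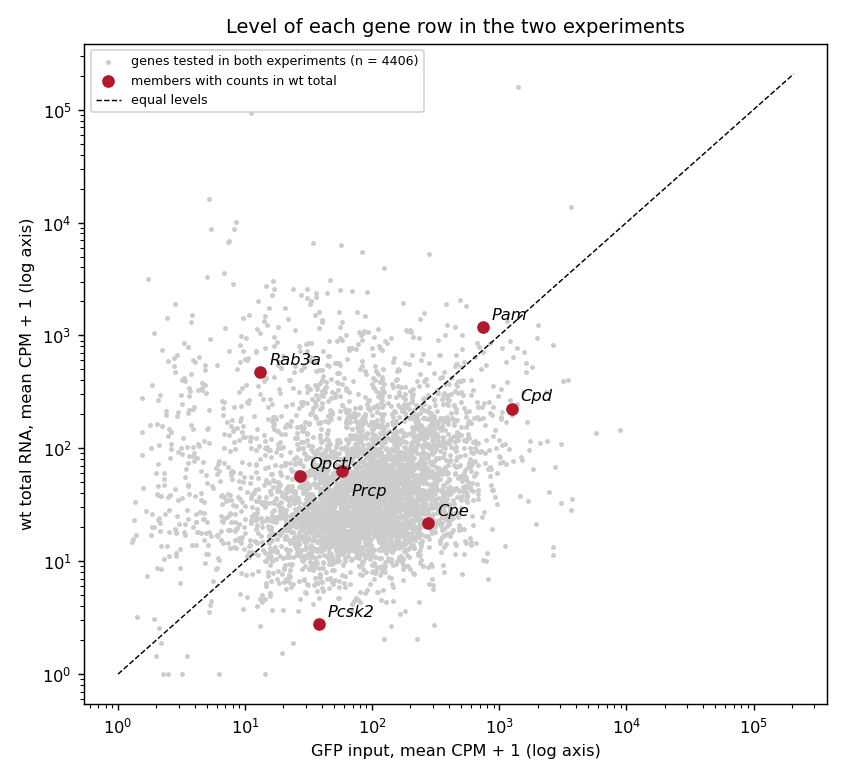
Mean level of each gene row in wt total RNA (vertical, CPM + 1) against the GFP inputs (horizontal, CPM + 1), both on log axes. Grey points are the 4406 genes tested in both experiments, red points are members, and the dashed line marks equal levels. Rab3a lies far above that line and Cpe, Cpd and Pcsk2 lie below it.

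Of the convertases, Pcsk2 had counts in every RIP library and Pcsk1 had none anywhere. It had 332 to 561 counts in the GFP-Mkrn3 IPs, 267 to 324 in the GFP-Mkrn3 inputs, 233 to 370 in the GFP IPs and 281 to 333 in the GFP inputs, which is 36.3 ± 0.880, 37.3 ± 3.34, 44.1 ± 4.09 and 37.0 ± 3.18 CPM. The GFP IP had the highest mean, and its lowest library overlapped those of both inputs. Pcsk1, the other neuroendocrine convertase (chr13:75089420-75134861), had 0 counts in each of the 24 libraries. At 3 counts over a group, that allows up to 0.122 CPM in the GFP inputs and up to 2.45 CPM in wt cytoplasm, a limit that covers counting error only. In the fractionation table Pcsk2 (chr2:143546133-143816284) had 2 counts in Mkrn3ox cytoplasm library 2, 3 in wt cytoplasm library 3, 4 in wt total library 3 and 0 elsewhere, and was not tested.

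The cyclases split in the same way. Qpctl, the Golgi-resident enzyme (chr7:19140217-19149196), was counted in every library. Qpct, the secreted enzyme (chr17:79051906-79090378), had 1 count in GFP-Mkrn3 IP library 3, 1 in Mkrn3ox total library 2 and 0 in the other 22 libraries. Neither Pcsk1 nor Qpct could be tested in any comparison.

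The carboxypeptidases were both counted throughout the RIP experiment. Cpe (chr8:64592542-64693109), the carboxypeptidase of dense-core vesicles, had 1801 to 4334 counts per RIP library. Cpd (chr11:76777208-76847008), a related enzyme of the trans-Golgi network, had 8556 to 19968. Pam (chr1:97821091-98095853) had 4878 to 9377 counts per RIP library, Prcp (chr7:92875253-92934581), which removes a C-terminal residue after proline, had 393 to 854, and Rab3a (chr8:70754703-70758608) had 31 to 190. A Rab3a value in the RIP experiment therefore rests on far fewer counts than a value of Cpd or Pam.

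The inputs asked whether 24 h of GFP-Mkrn3 changed the RNA of these genes. None of the 7 tested members passed edgeR's quasi-likelihood F test after Benjamini-Hochberg adjustment across the whole table, and 0 had an unadjusted p under 0.05. The DESeq2 test also called 0. Of all 13052 genes 0.0153% were called. The log2 fold changes of the 7 members lay between −0.22 for Rab3a (SE 0.223) and 0.04 for Prcp (SE 0.102), with a median of 0.01, against −0.00310 over all tested genes. Rab3a had 8.0, 11.6 and 11.4 CPM in the GFP-Mkrn3 inputs, against 13.9, 12.7 and 9.71 CPM in the GFP inputs, and the groups overlapped. Cpd had 1264, 1319 and 1255 CPM in the GFP-Mkrn3 inputs, against 1228, 1223 and 1291 CPM in the GFP inputs, also overlapping. Only Pam had input groups that did not overlap, at 709, 701 and 715 CPM with GFP-Mkrn3 against 724, 716 and 770 CPM with GFP. Its log2 fold change was −0.06 (SE 0.0815, adjusted p = 0.963, edgeR).

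The GFP pull-down, which carries no Mkrn3 construct, held more Cpd and less Rab3a than its own input. Cpd had 1678, 2009 and 1947 CPM in the GFP IPs, against 1228, 1223 and 1291 CPM in the GFP inputs. Every GFP IP library stood above every input library, and the log2 fold change was 0.59 (SE 0.0810, adjusted p = 7.9e-06, edgeR). Rab3a had 3.98, 5.76 and 6.28 CPM in the GFP IPs, against 13.9, 12.7 and 9.71 CPM in the GFP inputs. All 3 GFP IP libraries stood below the inputs, and the log2 fold change was −1.18 (SE 0.242, adjusted p = 0.000475, edgeR).

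Pam and Cpe were modestly higher in the same pull-down. Pam had 931, 881 and 827 CPM in the GFP IPs, against 724, 716 and 770 CPM in the GFP inputs (log2 fold change 0.26, SE 0.0815, adjusted p = 0.0136, edgeR). Cpe had 320, 312 and 306 CPM in the GFP IPs, against 304, 257 and 258 CPM in the GFP inputs (0.20, SE 0.0801, adjusted p = 0.0496, edgeR). In both genes all 3 IP libraries stood above the inputs, for Cpe by a margin of less than 2 CPM between the nearest libraries. Pcsk2 and Prcp gave 0.26 and 0.21 on the log2 scale, with adjusted p-values of 0.0753 and 0.0983, and Qpctl gave −0.08 (adjusted p = 0.669), all from edgeR. Pcsk2 was called without GFP IP 3 (0.33, adjusted p = 0.0449).

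In all, 4 of 7 members were called in the GFP pull-down, 3 higher and 1 lower, beside 50.3% of all tested genes (25.1% higher and 25.2% lower), so the count is near the background. The Cpe call was lost in 5 of 8 other settings and when any of 5 of the 6 compared libraries was left out, each GFP IP library (0.17 to 0.21) and GFP input 2 or 3 (0.15 and 0.16). The Pam call was lost with library size alone as scaling (0.15, adjusted p = 0.114) and without GFP input 1, GFP input 2 or GFP IP 1 (0.20 to 0.23).

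With GFP-Mkrn3 the pull-down and its input held the same genes at levels that did not differ beyond their spread. None of the 7 members passed the edgeR test, 0 had an unadjusted p under 0.05 and the DESeq2 test called 0, beside 26.7% of all tested genes. The log2 fold changes ran from −0.09 for Prcp (SE 0.100) to 0.27 for Qpctl (SE 0.137, adjusted p = 0.154). Cpd had 1215, 1279 and 1355 CPM in the GFP-Mkrn3 IPs, against 1264, 1319 and 1255 CPM in their inputs. Rab3a had 8.28, 12.2 and 9.10 CPM in the GFP-Mkrn3 IPs, against 8.0, 11.6 and 11.4 CPM in their inputs. Both pairs of groups overlapped, and the log2 fold changes were 0.00461 (SE 0.0807) and −0.06 (SE 0.220). Pam had 685, 601 and 724 CPM in the GFP-Mkrn3 IPs, against 709, 701 and 715 CPM in their inputs.

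**Figure D2:**
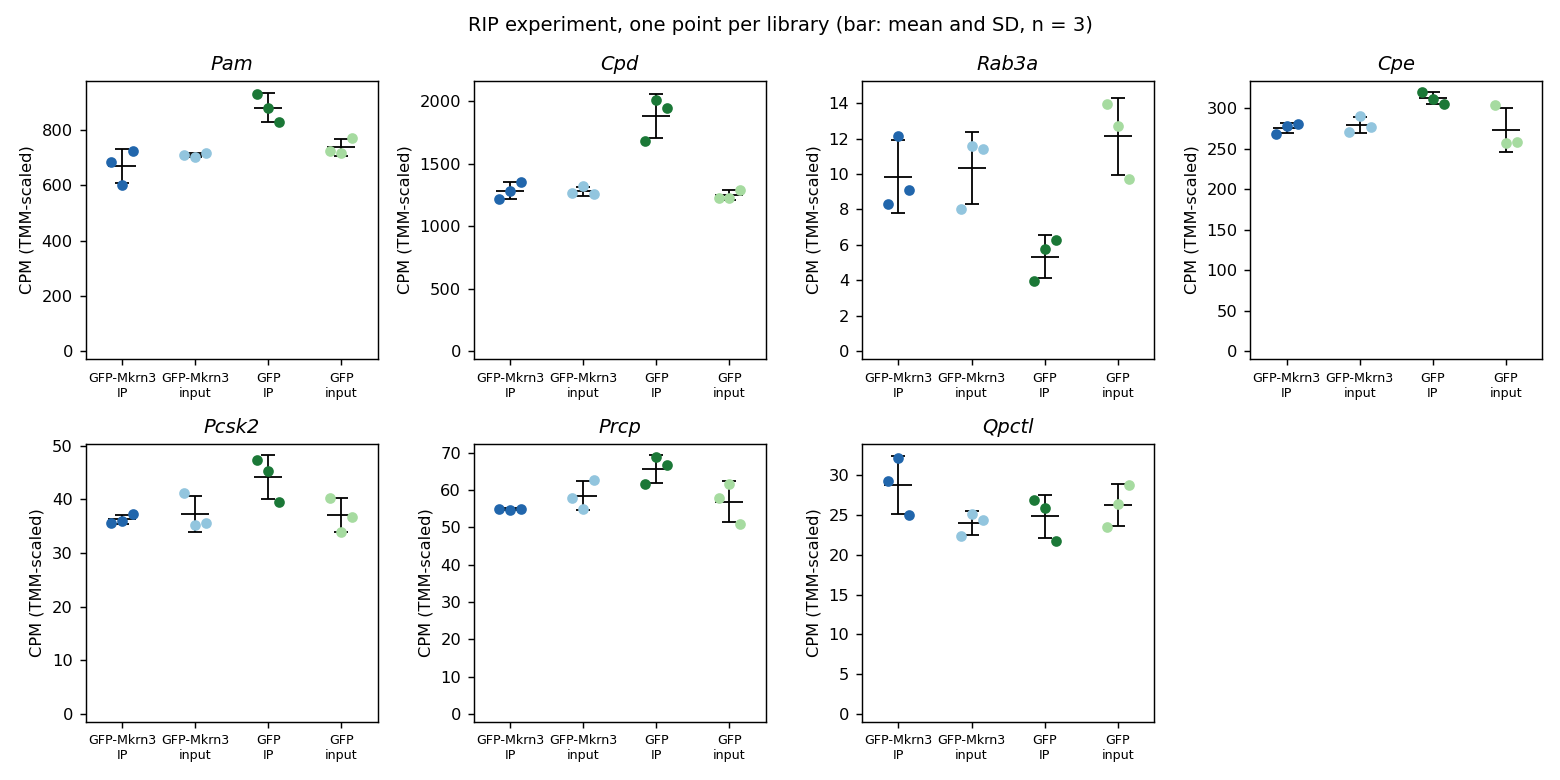
Level of the 7 members tested in the RIP experiment, in CPM, with 1 point per library and a bar for the mean and SD (n = 3). In each panel the GFP-Mkrn3 IP, GFP-Mkrn3 input, GFP IP and GFP input run left to right on an axis that starts just below 0. The Cpd points of the GFP IP lie above those of the other groups and the Rab3a points of the GFP IP lie below them.

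The direct test of GFP-Mkrn3 against GFP is the difference of the IP-to-input changes, called enrichment beyond GFP. Rab3a was enriched by 1.13 on the log2 scale (SE 0.327, adjusted p = 0.0179, edgeR), and Cpd and Pam had negative values, −0.59 (SE 0.114, adjusted p = 0.00128) and −0.34 (SE 0.115, adjusted p = 0.0396). That is 1 member higher and 2 lower of 7, beside 24.3% of all tested genes (13.2% higher and 11.1% lower). The IP-to-input changes behind these differences were −0.06 with GFP-Mkrn3 and −1.18 with GFP for Rab3a, 0.00461 and 0.59 for Cpd, and −0.08 and 0.26 for Pam. In each of these genes the change with GFP was the one that passed the test. Prcp (−0.30), Pcsk2 (−0.30), Cpe (−0.22) and Qpctl (0.35) had adjusted p-values of 0.136 to 0.21 and were not called. The median over the 7 members was −0.30, against 0.04 over all tested genes.

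The Cpd value kept its call under every setting tried and without each library. The Rab3a call was lost without GFP IP 1 (0.95, adjusted p = 0.0573) or GFP-Mkrn3 input 1 (0.97, adjusted p = 0.0521). The Pam call was lost without GFP-Mkrn3 IP 1 or 2, any GFP-Mkrn3 input, GFP IP 1 or 2, or GFP input 1 or 2 (−0.36 to −0.27, adjusted p = 0.0678 to 0.0915), with no filter (adjusted p = 0.0749) and with library size alone as scaling (−0.14, adjusted p = 0.336). It was also lost with a replicate block within each plasmid (−0.34, adjusted p = 0.0737). Fibroblast, endothelial and immune markers, of which 6 to 8 of 10 had counts with Ptprc at 0 throughout, summed to 622 to 638 CPM in the GFP-Mkrn3 IPs, 489 to 521 in their inputs, 881 to 1001 in the GFP IPs and 488 to 526 in the GFP inputs. Their part in the members' values was not tested.

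**Figure D3:**
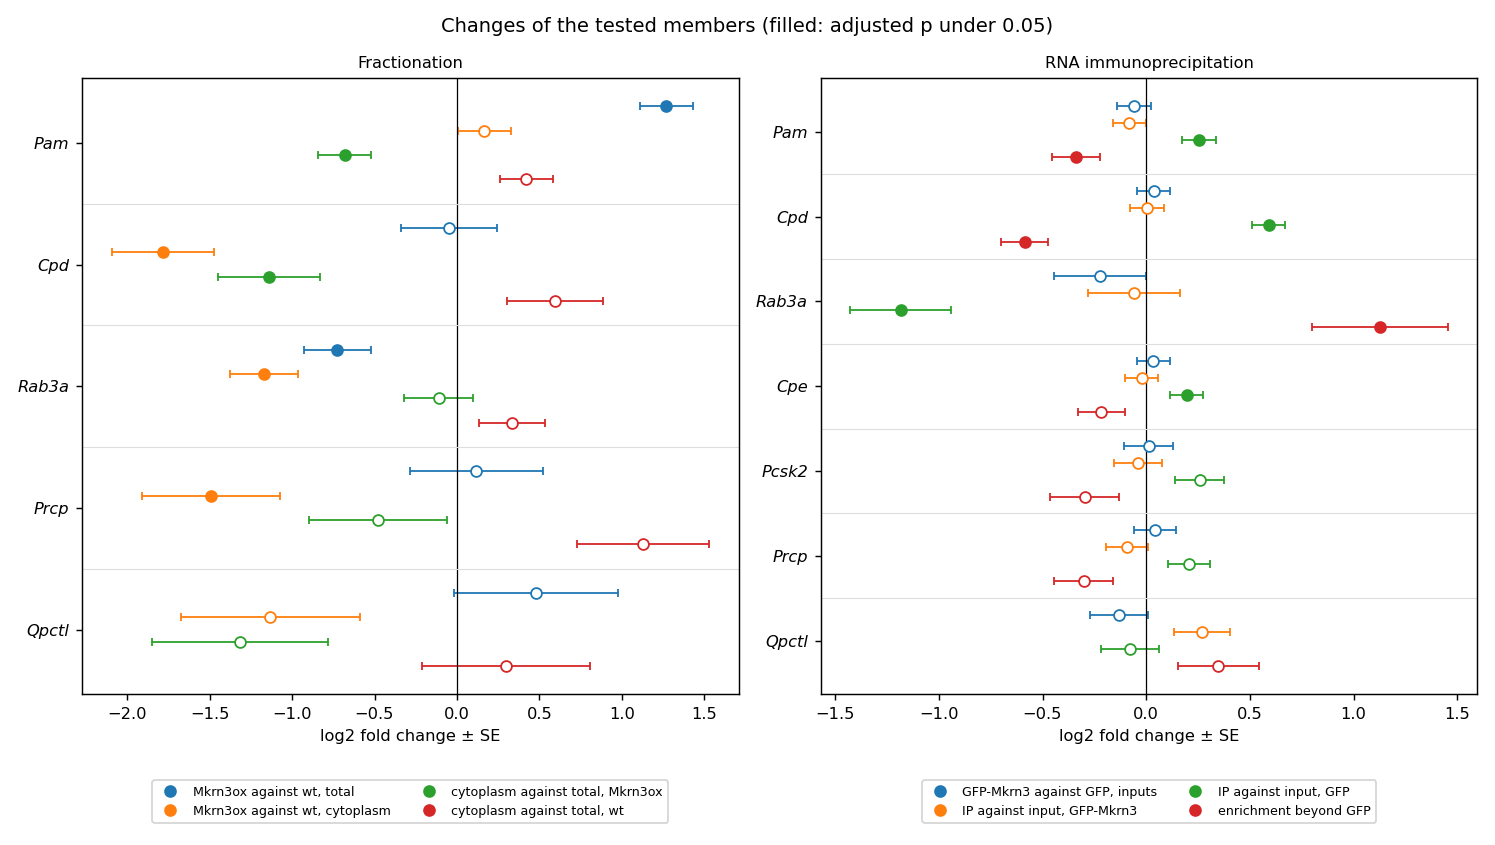
Log2 fold change ± SE of each tested member in the fractionation experiment (left, 5 members) and the RIP experiment (right, 7 members). Filled points have an adjusted p under 0.05, and Cpe is left out of the fractionation panel because it had no counts in Mkrn3ox cytoplasm. In the RIP panel Rab3a and Cpd lie on opposite sides of 0 both for the GFP pull-down and for the enrichment beyond GFP.

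In total RNA of the stable line, the Pam row was higher and the Rab3a row lower than in wt. The Pam row had 2943, 2876 and 2732 CPM in Mkrn3ox total RNA, against 1005, 1150 and 1387 CPM in wt total RNA. The groups stood well apart, with a log2 fold change of 1.27 (SE 0.162, adjusted p = 1.66e-05, edgeR). The Rab3a row had 274, 309 and 274 CPM in Mkrn3ox total RNA, against 553, 395 and 470 CPM in wt total RNA. These groups did not overlap either, with a log2 fold change of −0.72 (SE 0.203, adjusted p = 0.0303, edgeR). The remaining rows were not called. The Cpe row had 0, 0 and 4 counts in Mkrn3ox total RNA, against 7, 13 and 21 counts in wt total RNA (adjusted p = 0.108, edgeR). Without Mkrn3ox total 3, the library with the 4 counts, the Cpe row was called lower (adjusted p = 0.036). This row passed the filter on low counts through wt libraries alone. Cpd, Prcp and Qpctl gave −0.05, 0.12 and 0.48 on the log2 scale, with adjusted p-values of 0.689 to 0.949.

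In total RNA 2 of 6 tested rows were called, beside 7.39% of all 5033 tested genes (3.56% higher and 3.83% lower). The Pam call held under every setting, between 1.16 and 1.40. The Rab3a call was lost with no filter on low counts (adjusted p = 0.102) and in 5 of the 6 fits that left out 1 library, those without wt total 1 or 3 or any Mkrn3ox total library.

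The cytoplasm showed more rows lower in the stable line. The Rab3a row had 259, 280 and 255 CPM in Mkrn3ox cytoplasm, against 719, 591 and 476 CPM in wt cytoplasm (log2 fold change −1.17, SE 0.207, adjusted p = 0.000701, edgeR). The Cpd row had 150, 53.4 and 91.98 CPM in Mkrn3ox cytoplasm, against 370, 325 and 323 CPM in wt cytoplasm (−1.78, SE 0.311, adjusted p = 0.000614, edgeR). Neither pair of groups overlapped. The Cpe row had 0 counts in all 3 Mkrn3ox cytoplasm libraries, against 6, 22 and 12 counts in wt cytoplasm, and was at least 13.4-fold lower by a floor of 3 counts over the group (adjusted p = 0.00766, edgeR). It passed the filter on low counts through wt libraries alone, so a call could only be lower. The Prcp row had 52.4, 28.0 and 62.7 CPM in Mkrn3ox cytoplasm, against 145, 159 and 101 CPM in wt cytoplasm (−1.49, SE 0.417, adjusted p = 0.0236, edgeR). These 2 rows, too, had groups that did not overlap. Groups of uncalled rows also stood apart, as did Cpe in total RNA and Cpd and Prcp for wt cytoplasm against wt total RNA. The share of all genes with such groups is not given for this or any other comparison, so a lack of overlap is a description.

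The Pam row, higher in total RNA, had 1734, 1794 and 1802 CPM in Mkrn3ox cytoplasm, against 1850, 1628 and 1269 CPM in wt cytoplasm, and the groups overlapped (0.17, SE 0.161, adjusted p = 0.585, edgeR). The Qpctl row had 29.9, 40.7 and 23.0 CPM in Mkrn3ox cytoplasm, against 31.0, 34.0 and 142 CPM in wt cytoplasm, where library 3 alone stood high (−1.13, adjusted p = 0.208, edgeR). In all, 4 of 6 rows were lower and none higher, beside 10.5% of all tested genes (6.14% lower and 4.31% higher). The 4 include the Cpe row, whose direction was fixed by the filter. The Prcp call was lost with library size alone as scaling (−1.13, adjusted p = 0.0744) and without wt cytoplasm 1 or 2 or Mkrn3ox cytoplasm 1 or 2 (−1.57 to −1.24). Library size alone moved the median of all genes to 0.38, against 0.03 with TMM, and called the Pam row higher (0.53, adjusted p = 0.0202).

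**Figure D4:**
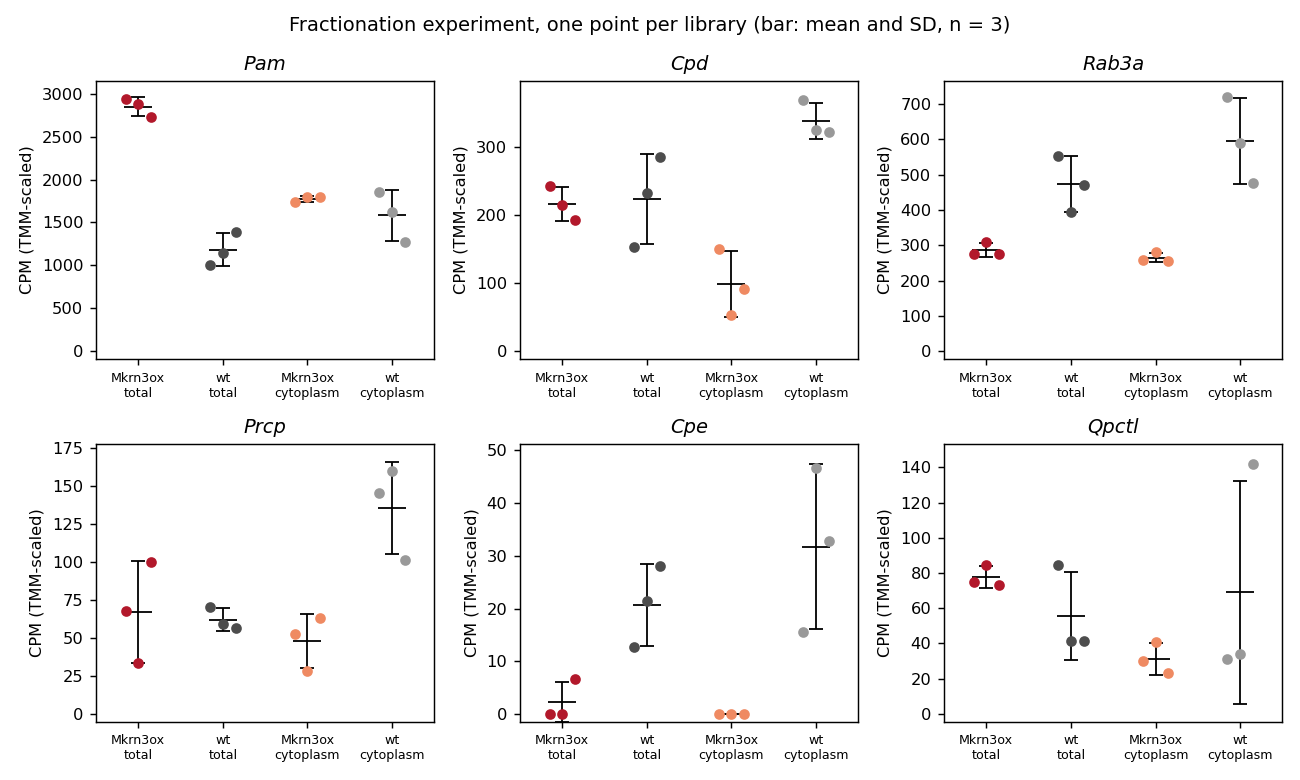
Level of the 6 rows tested in the fractionation experiment, in CPM, with 1 point per library and a bar for the mean and SD (n = 3). Mkrn3ox total, wt total, Mkrn3ox cytoplasm and wt cytoplasm run left to right on an axis that starts just below 0. The Pam points of Mkrn3ox total RNA lie above all others, and for Rab3a, Cpd, Prcp and Cpe the Mkrn3ox cytoplasm points lie below the wt cytoplasm points.

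Cytoplasm was also set against total RNA within each line. In Mkrn3ox cells the Pam row averaged 1777 ± 37.3 CPM in the cytoplasm and 2850 ± 108 CPM in total RNA (−0.68 on the log2 scale, SE 0.160, adjusted p = 0.015, edgeR). The Cpd row averaged 98.4 ± 48.4 CPM in the cytoplasm and 217 ± 25.1 CPM in total RNA (−1.14, SE 0.310, adjusted p = 0.0369, edgeR). These were 2 of 6 rows, both lower, beside 4.53% of all tested genes (0.775% higher and 3.76% lower). The 228 genes behind that share became 125 to 146 when 1 Mkrn3ox cytoplasm library or Mkrn3ox total 1 was left out. Each of these calls was lost in 5 of 6 fits without 1 library. The Pam call held without Mkrn3ox total 3 (adjusted p = 0.0453), the Cpd call held without Mkrn3ox cytoplasm 1 (adjusted p = 0.0101), and the Cpd call was also lost with library size alone (adjusted p = 0.0516).

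In wt cells no row was called (0 of 6 by edgeR and by DESeq2, with 2 at an unadjusted p under 0.05, beside 3.78% of all tested genes, 0.616% higher and 3.16% lower). All 6 values were positive, beside 50.9% of all tested genes, from 0.30 for Qpctl (SE 0.508) to 1.13 for Prcp (SE 0.401, adjusted p = 0.146). This count of signs is a description. With library size alone as scaling the median of all genes moved to −0.22, against 0.01 with TMM. The Rab3a row averaged 595 ± 122 CPM in wt cytoplasm and 473 ± 78.9 CPM in wt total RNA. The Qpctl value turned to −0.76 without wt cytoplasm library 3. Of 4 tested rows named for nuclear-retained RNAs, 2 were lower in the cytoplasm in Mkrn3ox cells and 4 in wt cells, and 1 of the 4, Xist, had no counts in Mkrn3ox total RNA to be lower than. The row of Malat1, named for a nuclear speckle RNA, fell by 3.19 on the log2 scale in Mkrn3ox cells (adjusted p = 0.00306, edgeR) and fell by 4.17 in wt cells (adjusted p = 0.000165, edgeR). Another of these rows, Xist, differed between the lines in total RNA: it had 0 counts in all 3 Mkrn3ox total libraries, against 139, 159 and 159 counts in wt total RNA, at least 136-fold lower by a floor of 3 counts over the group (adjusted p = 2.42e-07, edgeR). The Xist row passed the filter on low counts through wt total RNA, so this call could only be lower. It did have counts in Mkrn3ox cytoplasm, where the 6 listed nuclear-retained rows together summed to 8.36 to 33.1 CPM. The part of other differences between the lines in the members' values was not tested.

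The difference of these ratios between the lines was tested directly. The Pam row had a cytoplasm-to-total ratio lower in Mkrn3ox than in wt by 1.10 on the log2 scale (−1.10, SE 0.227, adjusted p = 0.0367, edgeR), the 1 call of 6 rows beside 0.219% of all tested genes (0.0795% higher and 0.139% lower). Those 11 genes became 35 without wt total 1. All 6 fitted values were negative, from −1.74 for Cpd to −0.44 for Rab3a apart from Cpe, whose fitted value rests on a group with 0 counts and is not given. This comparison shares its libraries with those above, so the count of signs is a description. The Cpd row (SE 0.424) had an adjusted p of 0.0993 with edgeR, 0.0134 with DESeq2, 0.0156 with no filter and 0.0302 without Mkrn3ox cytoplasm 1. The Pam call was lost when 1 Mkrn3ox library of either kind, wt cytoplasm 1 or wt cytoplasm 2 was left out (adjusted p = 0.0911 to 0.13) and with library size alone (−0.84, adjusted p = 0.107). It was also lost with a replicate block across groups (adjusted p = 0.0791) or within each line (adjusted p = 0.069).

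The fibroblast, endothelial and immune markers, of which 4 or 5 of 10 had counts, summed to 512 to 526 CPM in Mkrn3ox total RNA, 364 to 537 in wt total RNA, 292 to 376 in Mkrn3ox cytoplasm and 451 to 572 in wt cytoplasm. Pecam1, Cdh5, Aif1 and Cx3cr1 had no counts in any of these groups, and Ptprc had counts in wt cytoplasm alone. Of the 2 tested, Col1a1 was higher in Mkrn3ox total RNA than in wt (3.05, adjusted p = 0.0262, edgeR). Col1a2 was lower in Mkrn3ox cytoplasm (−0.71, adjusted p = 0.0346, edgeR). Of all tested genes 7.39% and 10.5% were called in these comparisons. The mt-Nd6 row took 8.79 to 9.43% of counts in Mkrn3ox total RNA, 13.9 to 16.0% in wt total RNA, 9.80 to 12.1% in Mkrn3ox cytoplasm and 18.6 to 23.2% in wt cytoplasm. Without the mt-Nd6 row, an alternative chosen after seeing the data, every member's call in the fractionation comparisons was unchanged. The part of the markers was not tested.

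Other genes of the secretory pathway were counted from lists. Of 6 tested rows for further convertases and their binding proteins, Pcsk1n, an inhibitor of Pcsk1, and Furin, a ubiquitous convertase, were lower in the GFP pull-down than in its input (−1.05 and −0.53), beside 25.2% of all genes. Pcsk1n had 40.1 ± 15.2 CPM in the GFP-Mkrn3 IPs, 31.6 ± 3.24 in their inputs, 18.2 ± 4.31 in the GFP IPs and 37.6 ± 11.2 in the GFP inputs. Its enrichment beyond GFP was 1.40 (adjusted p = 0.00673, edgeR), the 1 call among those 6. Scg5, which helps Pcsk2 to fold, was tested and not called (−0.25, adjusted p = 0.4).

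Among 12 tested peptide-trimming and degrading enzymes, 3 had a lower enrichment beyond GFP and 0 a higher one, beside 11.1% and 13.2% of all genes: Lnpep, Prep and Prepl, at −0.71, −0.63 and −0.37. Prep, a prolyl endopeptidase, had 149 ± 5.14 CPM in the GFP-Mkrn3 IPs, 138 ± 8.14 in their inputs, 198 ± 22.0 in the GFP IPs and 119 ± 4.71 in the GFP inputs. Of 14 dense-core granule genes 8 were tested in the RIP experiment. The list summed to 295 to 377 CPM per RIP library, with counts in a group for 9 or 10 of the 14, Chgb among them. The granule protein Scg2 had 0 counts in every group, and Chga had 0 to 1 counts per library, with counts in the GFP-Mkrn3 IPs alone. Of the 8, Ccdc186 was lower in enrichment beyond GFP (−0.41, adjusted p = 0.0461) and the other 7 were not called, beside 24.3% of all genes called (11.1% lower).

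Of 23 genes of the Rab3 cycle, 16 were tested in the RIP experiment. In the GFP pull-down 6 were higher and 2 lower than in the input, beside 25.1% and 25.2% of all genes. The lower ones included Rph3al, a Rab effector, at 6.36 ± 0.393 CPM in the GFP IPs and 18.0 ± 5.36 in their inputs (−1.51, adjusted p = 1.23e-05, edgeR). In enrichment beyond GFP, Rph3al was higher (1.33, adjusted p = 0.0029) and Rab3gap1, a subunit of the Rab3 GTPase-activating complex, lower (−0.50, adjusted p = 0.034). Of these genes 6 were tested in the fractionation experiment, and 1 was called: the row of Unc13a, a vesicle-priming factor, at 807 ± 45.3 CPM in Mkrn3ox cytoplasm and 1758 ± 74.0 CPM in wt cytoplasm (−1.12, adjusted p = 8.31e-05, edgeR), beside 10.5% of all genes called in that comparison.

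The substrate most relevant to these enzymes, Gnrh1, was tested with 2 other peptide precursors of 22 listed. It had 209 ± 11.7 CPM in the GFP-Mkrn3 IPs, 319 ± 19.4 in their inputs, 83.8 ± 7.99 in the GFP IPs and 313 ± 27.5 in the GFP inputs. Both pull-downs held less of it than their inputs (−0.61 and −1.90), and its enrichment beyond GFP was 1.29 (adjusted p = 5.14e-06, edgeR), against 1.13 for Rab3a. Pthlh, another precursor, had an enrichment of 1.40 (adjusted p = 0.0127).

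Likeness was measured as Pearson's r of log2 CPM over all 24 libraries, centred within each experiment, and is a description over libraries that share depth and group. It takes in the fractionation libraries, so each gene named here stands for its row and not for the amount of its mRNA. Rab3a was most like Gadd45gip1 (0.87), Ddit3 (0.85) and Ppt1 (0.85). Cpd was most like Cdh2 (0.88), Nrp1 (0.87) and Rlim (0.84), and Pam most like Plxna4 (0.89), Dvl2 (0.86) and Lifr (0.86). Cpe was most like Npnt (0.92), Palld (0.92) and Tmem144 (0.92), and Prcp most like Sdc2 (0.82), Fosl2 (0.82) and Ppfibp1 (0.78). The weakest were those of Qpctl, with Mttp (0.70), Rai1 (0.70) and 5031434O11Rik (0.70).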

How the data were processed

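RNA was measured in 24 libraries of GT1-7 cells. Per the labels' protocols, libraries were made with CEL-seq2. Library names carry CEL-seq in the fractionation experiment only, and the experiments were treated as differing in library protocol. Per the submitters' processing notes, cutadapt, STAR and HTSeq were used, with the build mm10. Not given in the sources used here are versions, annotation, strand setting and whether molecular identifiers were collapsed. The authors deposited raw counts per gene, as whole numbers in 57010 rows per table. The RIP table gives no gene names, so members were matched by the identifier paired with the name in the fractionation table. Of the identifiers, 52029 are in the reference name table.

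Each experiment was fitted apart with edgeR 4.0.16 in R 4.3.3, with all 12 libraries, TMM scaling, the filterByExpr filter per group, 1 mean per group without a block, and the two-sided quasi-likelihood F test. P-values were adjusted by Benjamini-Hochberg over all tested genes and called under 0.05, in 9 contrasts. The SE is the log2 fold change divided by the square root of F. Positions and promoters came from RefSeq tables of GRCm38.p6, read with Python 3.11.15. The fits were run on simulated data with 200 changed genes, and the recovery is not given here. Far more genes were called in the pull-downs, so the simulation does not check those calls. No 2 libraries of a group agreed within sampling noise.

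The members and lists were chosen with earlier results of these data known. Named genes are all 9 members, up to 3 called genes of largest change per list and contrast, chosen values of untested list genes, and the 3 genes most like each tested member. Alternatives were DESeq2 1.42.0 (size factors and test), library size alone, no filter, a mean of at least 20 counts, the compared groups alone, replicate blocks, and leaving out each library. Intervals and floors cover counting error only.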

Additional observations from a re-analysis of the deposited data

Results flagged for a closer look

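The IP-to-input change with GFP-Mkrn3 differed from that with GFP for 3 members by the edgeR test of the difference itself. Rab3a differed by 1.13 on the log2 scale, from −0.06 with GFP-Mkrn3 and −1.18 with GFP. Cpd differed by −0.59, from 0.00461 with GFP-Mkrn3 and 0.59 with GFP, and Pam by −0.34, from −0.08 with GFP-Mkrn3 and 0.26 with GFP. In the fractionation table the cytoplasm-to-total change of the Pam row differed between lines by −1.10, from −0.68 in Mkrn3ox and 0.42 in wt.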

How the results depend on the processing

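Over all alternatives, 879 member values were recomputed: 786 kept their direction and side of the threshold, 61 lost a call, 6 gained one and 26 changed sign. None of the 16 called values changed sign, and 7 stayed called under every alternative run: the Pam row in total RNA, the Cpe, Cpd and Rab3a rows in the cytoplasm, Cpd and Rab3a in the GFP pull-down, and the Cpd enrichment beyond GFP. For the Cpe row this rests on 6 other settings, against 8 for the Cpd and Rab3a rows in the cytoplasm. The Cpe row passed the filter on low counts through wt libraries alone, so the direction of its call was fixed in advance. It was not tested with a mean of at least 20 counts or in the compared groups alone. The cause of the changes below was not tested.

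The number of members called in total RNA was 1 with no filter and 1 to 2 without 1 library. For cytoplasm against total RNA in Mkrn3ox it was 1 with library size alone and 0 to 1 without 1 library. For the ratio difference it was 0 with library size alone, 2 with no filter, 2 with the DESeq2 test, and 0 to 1 without 1 library. For the GFP pull-down it was 2 with library size alone and 2 to 4 without 1 library, and for the enrichment 1 to 3 without 1 library. Over all pairs of groups, deviations of same-numbered libraries had r of −0.146 to 0.238. For IP and input of the same plasmid r was −0.0143 to 0.0144 with GFP and −0.146 to −0.00190 with GFP-Mkrn3. Such values cannot settle whether same-numbered libraries came from the same lysate, because deviations from means of 3 libraries need not carry a pairing. With a replicate block, shared by all groups or set within each line or plasmid, the ratio difference called 0 members and the other counts of members stayed within 1.5 times. The calls lost with it were the Pam ratio (adjusted p of 0.0791 and 0.069), Cpe in the GFP pull-down (0.0607 and 0.0691) and, within plasmids alone, the Pam enrichment (0.0737).

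Sign changes were all in uncalled values. With library size alone, Cpd in total RNA was 0.0373, Pcsk2 in the inputs −0.00280, and in the GFP-Mkrn3 pull-down Pam was 0.00147, Cpe 0.0627, Pcsk2 0.0442 and Rab3a 0.0275. With no filter, Cpd in that pull-down was −0.00517. Without 1 library, in total RNA Cpd ran over −0.258 to 0.167 and Prcp over −0.313 to 0.439, and for wt cytoplasm against total RNA Qpctl over −0.762 to 0.717. In the inputs Cpe ran over −0.00710 to 0.119, Pcsk2 over −0.0628 to 0.0775 and Prcp over −0.0317 to 0.107. In the GFP-Mkrn3 pull-down Cpe ran over −0.0448 to 0.00639, Cpd over −0.0364 to 0.0421, Pcsk2 over −0.0812 to 0.0344 and Rab3a over −0.253 to 0.0532, and Qpctl in the GFP pull-down over −0.160 to 0.00603. Cpe in cytoplasm against total RNA of Mkrn3ox could not be fitted without Mkrn3ox total library 3, since no count was left.

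Library size alone moved the median of all genes to 0.38 in the cytoplasm, −0.22 for cytoplasm against total RNA in wt, 0.27 for the ratio difference, 0.11 and −0.11 for the GFP-Mkrn3 and GFP pull-downs and 0.23 for the enrichment. It turned higher against lower calls to 252 and 163 in total RNA (179 and 193 with TMM), 507 and 189 in the cytoplasm (217 and 309), 8 and 6 for the ratio (4 and 7), 2599 and 1263 with GFP-Mkrn3 (1812 and 1675), 2554 and 3952 with GFP (3274 and 3291), and 2845 and 603 for the enrichment (1724 and 1454). Called genes in the ratio difference, 11 in all, were 43 with no filter and 50 with DESeq2, and in the inputs, 2 in all, were 34, 6 and, with the compared groups alone, 4. Without 1 library they were 234 to 306 in total RNA, against 372, 125 to 153 for cytoplasm against total RNA in Mkrn3ox, against 228, 8 to 35 for the ratio difference and 1 to 3 in the inputs.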

Other observations

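Of 5 tested nuclear-retained RNAs, 4 were called higher than in the input with GFP-Mkrn3 and 5 with GFP, beside 13.9% and 25.1% of all genes. Kcnq1ot1 changed most, by log2 fold changes of 2.86 and 3.36 (adjusted p of 1.32e-09 and 8.26e-11, edgeR). Xist, which coats the inactive X chromosome, averaged 344 ± 91.2 CPM in the GFP-Mkrn3 IPs and 63.9 ± 7.05 CPM in their inputs (log2 fold change 2.43, adjusted p = 1.02e-08, edgeR), and 414 ± 62.3 CPM in the GFP IPs and 56.9 ± 10.7 CPM in their inputs (2.87, adjusted p = 4.55e-10, edgeR). Neat1, the scaffold of paraspeckles, had log2 fold changes of 1.38 with GFP-Mkrn3 and 1.73 with GFP. The differences between the plasmids, −0.44 for Xist and −0.35 for Neat1, did not pass the test (adjusted p of 0.182 and 0.208, edgeR).

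Among the other genes of secretion, Rims2, an active-zone protein that binds Rab3, averaged 29.4 ± 4.65 CPM in the GFP IPs and 18.0 ± 0.872 CPM in their inputs (0.70, adjusted p = 0.000639, edgeR). Nucb2, the precursor of nesfatin, was lower in both pull-downs than in their inputs, by log2 fold changes of −0.54 with GFP-Mkrn3 (adjusted p = 0.0119) and −0.65 with GFP (adjusted p = 0.00157), both from edgeR. Ece1, a membrane metallopeptidase, was higher in both (0.49 and 0.45, adjusted p of 0.00889 and 0.00818, edgeR).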
